A study of Mus musculus with 16 samples.

Results

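Hopx, which encodes a small homeodomain protein that does not bind DNA, and 9 DNA-binding transcription factors of the heart were followed in left ventricles of mice with a mutation in RBM20. The 10 genes are Hopx, the GATA factors Gata4 and Gata6, the homeodomain factor Nkx2-5, the T-box factors Tbx5 and Tbx20, the MADS-box factors Mef2a, Mef2c and Mef2d, and the basic helix-loop-helix factor Hand2. They are 10 of the 56953 genes in the count table, and all 10 passed the filter on low counts. Hopx was chosen on its low values in mutant hearts with the control virus, so its difference from wild type is a description and carries no test. The other 9 are factors known for their role in the heart, and they too were listed with earlier results of these data known.

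GATA4, NKX2-5, TBX5, TBX20, HAND2 and the MEF2 proteins bind each other and shared enhancers, and together they form the heart during development and maintain the expression of contractile genes in adult muscle. HOPX acts through partners: it binds serum response factor, which switches on muscle and immediate early genes, and recruits histone deacetylases that reduce its activity. RBM20 is a splicing regulator of heart muscle, and TNPO3 is an importin that carries serine- and arginine-rich splicing proteins into the nucleus.

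The mice were of the Bl6J strain, of both sexes, and either wild type (WT) or homozygous for the RBM20 substitution named P635L. At 4 weeks of age all of them received 1e12 vector genomes of adeno-associated virus AAV9 intravenously, carrying a Tnpo3 cDNA (Tnpo3) or a control construct that expresses iCre and eGFP from pCAG (Ctr), so the virus groups also differ in Cre and GFP. Left ventricles were taken 12 weeks later, at 16 weeks, and each of the 4 groups held 4 mice with 1 library each. The groups are named by genotype and virus: WT Ctr and P635L Ctr received the control construct, WT Tnpo3 and P635L Tnpo3 the cDNA. Every group used here received a virus.

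Library totals ranged from 28493249 to 85922669 counts. Levels are given as CPM, which are counts scaled to the library total after correction with the trimmed mean of M-values. Tnpo3 measured 41.6 to 49.4 CPM in the 8 Ctr libraries and 231 to 723 CPM in the 8 libraries with its virus, so each library matched its virus label, whereas Rbm20, a point mutant, measured 167 to 333 CPM in all groups and checks no genotype. Ventricular markers were abundant in every library (summed level 34613 to 65683 CPM), while of the 6 atrial markers Myl7, Sln and Bmp10 stayed between 0 and 1.43 CPM. The summed level of the 6 was 155 to 413 CPM in WT Ctr and 5151 to 9825 CPM in P635L Ctr, of which Nppa, also a gene of the stressed ventricle, was the largest portion, and 2 of the 3 atrial markers tested were called higher in P635L Ctr. In 3 libraries (WT Ctr replicates 2 and 4 and WT Tnpo3 replicate 4), over 10% of counts fell on the single gene ENSMUSG00000119584. Xist exceeded the Y-linked genes in 3 libraries (WT Ctr replicate 4 and WT Tnpo3 replicates 2 and 4) and in 0 of the 8 P635L libraries. Both sets of 3 are wild type only, so these features run with genotype. A change was called at an adjusted p under 0.05 in edgeR's quasi-likelihood test, adjusted over 18662 genes.

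Hopx was the most abundant of the 10 per kilobase of exon in WT Ctr and the least abundant in P635L Ctr. The gene (ENSMUSG00000059325) lies on chromosome 5 from 77234835 to 77262968, minus strand, in GRCm39. Its level was 264, 245, 303 and 258 CPM in WT Ctr replicates 1 to 4, and 2.97, 5.01, 3.99 and 3.30 CPM in P635L Ctr replicates 1 to 4. Each P635L Ctr library was thus far below each WT Ctr library. The means were 267 ± 24.8 and 3.82 ± 0.903 CPM (SD, n = 4), a fitted difference of -6.12 on the log2 scale or 69.5-fold, and the P635L Ctr mean was 1.43% of the WT Ctr mean.

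With the Tnpo3 virus, P635L hearts carried 32.7, 43.1, 32.6 and 15.0 CPM of Hopx in replicates 1 to 4. All 4 values were above every P635L Ctr library and below every wild-type library. The mean was 30.9 ± 11.7 CPM (SD, n = 4), which is 11.5% of the WT Ctr mean. Against P635L Ctr the fitted rise was 8.02-fold (log2 fold change 3.00, SE 0.285, adjusted p = 2.47e-05). The P635L Ctr libraries in this comparison also served to choose Hopx. P635L Tnpo3 against WT Tnpo3 holds no Ctr library, and there Hopx was 8.62-fold lower (log2 fold change -3.11, SE 0.279, adjusted p = 1.12e-05). The fit drew its spread from all 16 libraries, and Hopx was listed with earlier results of these data known. This p is therefore not independent of the choice either.

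In wild type the mean of Hopx with the Tnpo3 virus was close to that with the control virus. WT Tnpo3 replicates 1 to 4 measured 296, 334, 271 and 163 CPM, and their mean of 266 ± 73.6 CPM (SD, n = 4) was 99.5% of the WT Ctr mean (log2 fold change -0.01, SE 0.257, adjusted p = 1.00). Replicate 4 was below every WT Ctr library, replicate 2 was above every one, and the other 2 lay within their range. The effect of the virus on Hopx differed between genotypes by 3.01 on the log2 scale (SE 0.379, adjusted p = 0.00175 for the interaction of virus and genotype), a term that includes the libraries on which Hopx was chosen.

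**Figure D1:**
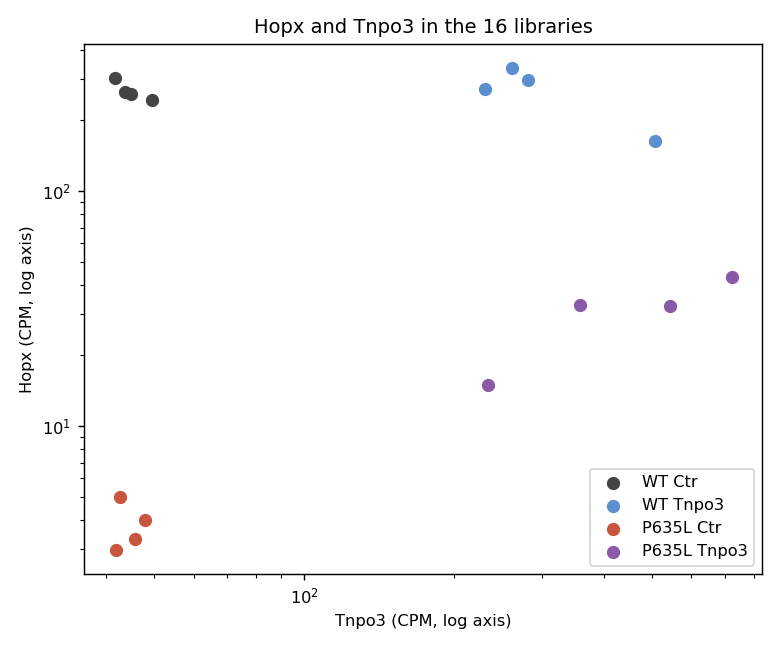
Level of Hopx (vertical axis, CPM, log scale) against that of Tnpo3 (horizontal axis, CPM, log scale), 1 point per library in 4 colours for the 4 groups. P635L Tnpo3 libraries lie between 15.0 and 43.1 CPM of Hopx, above P635L Ctr and below all wild-type libraries.

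Set side by side with the level of the virally expressed gene, Hopx in P635L Tnpo3 was 15.0 CPM where Tnpo3 was 234 CPM and 43.1 CPM where Tnpo3 was 723 CPM. The other 2 libraries, with 359 and 543 CPM of Tnpo3, had 32.7 and 32.6 CPM of Hopx. In WT Tnpo3 the library with the highest Tnpo3 level, replicate 4 at 507 CPM, had the lowest Hopx level. With 4 libraries a group, no relation between the 2 genes was tested.

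The RefSeq table holds 2 start sites for Hopx, and their upstream sequences are shown because they can be searched for the motifs of the other factors and of serum response factor. The 250 bases before each start are printed from RefSeq (GRCm38.p6, chr5:77115124-77115373 for the first and chr5:77095268-77095517 for the second, minus strand), with matches to 6 motifs in capitals.
Hopx start 1: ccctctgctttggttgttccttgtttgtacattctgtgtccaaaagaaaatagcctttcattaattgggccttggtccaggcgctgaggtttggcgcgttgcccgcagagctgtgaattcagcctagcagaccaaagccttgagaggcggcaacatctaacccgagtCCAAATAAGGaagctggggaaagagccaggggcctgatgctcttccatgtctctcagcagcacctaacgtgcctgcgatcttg
Hopx start 2: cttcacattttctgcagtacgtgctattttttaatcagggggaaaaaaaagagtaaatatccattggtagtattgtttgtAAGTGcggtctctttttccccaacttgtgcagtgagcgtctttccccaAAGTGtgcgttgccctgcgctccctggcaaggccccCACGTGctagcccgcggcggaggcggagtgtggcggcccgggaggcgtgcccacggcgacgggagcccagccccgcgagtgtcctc
The motifs searched on both strands were GATAA (GATA factors), AAGTG (NKX2-5), GGTGTG (T-box factors), CANNTG (the E-box of basic helix-loop-helix factors), the CArG box of serum response factor and the MEF2 site. The window of the first start held 1 match, a CArG box whose first base lies 83 bases before the start, and 1.47% of the 32851 promoter windows in the RefSeq table hold such a box. The window of the second start held AAGTG 2 times, a motif found in 40.7% of windows, and 1 E-box, found in 66.2%. GATAA (22.6% of windows), GGTGTG (16.3%) and the MEF2 site (0.508%) had no match in either. The E-box and AAGTG matches did not overlap. These matches describe letters only, since binding was not measured.

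Hopx shares 412 exon bases with Hopxos, a noncoding gene on the other strand, and the labels do not say whether counting used strand. Hopxos was scarce, with counts of 11, 22, 30 and 70 in WT Ctr and 1, 0, 3 and 0 in P635L Ctr. It was called lower in P635L Ctr (log2 fold change -5.62, SE 1.00, adjusted p = 0.000908), and reads of the pair cannot be told apart where the exons overlap. Per kilobase of exon, Hopxos ranged from 0.240 to 1.22 RPKM in WT Ctr, where Hopx had a mean of 176 RPKM.

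Of the nearest tested genes on either side, Srp72, a subunit of the signal recognition particle 87051 bases away, measured 56.4 to 61.6 CPM in WT Ctr and 51.5 to 53.5 CPM in P635L Ctr and was not called (log2 fold change -0.16, SE 0.0906, adjusted p = 0.273). On the other side, 11569 bases away, the unnamed gene ENSMUSG00000120897 (chromosome 5, 77274537 to 77283704, plus strand) had 2, 1, 14 and 18 counts in WT Ctr. It had 0 counts in each P635L Ctr library, which allows up to 0.0128 CPM over the group at 3 counts, and 7, 15, 10 and 8 counts in P635L Tnpo3. These counts are low in every group, and both P635L comparisons of this gene passed the threshold (adjusted p = 0.00110 for P635L Ctr against WT Ctr and 0.00721 for P635L Tnpo3 against P635L Ctr).

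The genes whose levels followed Hopx most closely over the 16 libraries, among the 12489 tested genes whose mean log2 CPM reached 1, were AC132253.9 (Pearson r = 0.973), Gm31013 (0.970), Wfikkn2 (0.968), ENSMUSG00000120208 (0.968) and Fsd1l (0.968). They were selected for likeness to Hopx, so their values are descriptions. ENSMUSG00000120208 had group means of 18.9 CPM in WT Ctr, 21.1 in WT Tnpo3, 0.416 in P635L Ctr and 5.51 in P635L Tnpo3. Wfikkn2, which encodes a secreted inhibitor of myostatin-type ligands, had means of 9.25, 9.95, 2.15 and 3.80 CPM in the same order. The likeness was lower within groups: with group means removed, r with Hopx was 0.366 for Fsd1l to 0.689 for AC132253.9 over the same 16 libraries.

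On a scale per kilobase of exon (RPKM), which allows genes to be compared, the order in WT Ctr was Hopx (176 ± 16.4, SD, n = 4), Nkx2-5 (39.8 ± 9.34), Mef2d (23.6 ± 3.94), Hand2 (18.7 ± 6.37), Gata4 (17.9 ± 3.47), Mef2a (7.14 ± 0.672), Gata6 (4.96 ± 0.586), Tbx5 (4.79 ± 0.915), Mef2c (3.99 ± 0.547) and Tbx20 (3.27 ± 0.651). Mef2d, Hand2 and Gata4 did not differ beyond their spread, nor did neighbours in the run from Gata6 to Tbx20. In P635L Ctr Hopx held the last place at 2.52 ± 0.596 RPKM, within the spread of Tbx5 at 2.93 ± 0.439. In P635L Tnpo3 it stood at 20.4 ± 7.69 RPKM, between Nkx2-5 at 30.2 ± 1.54 and Mef2d at 19.3 ± 1.82, and within the spread of Mef2d.

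**Figure D2:**
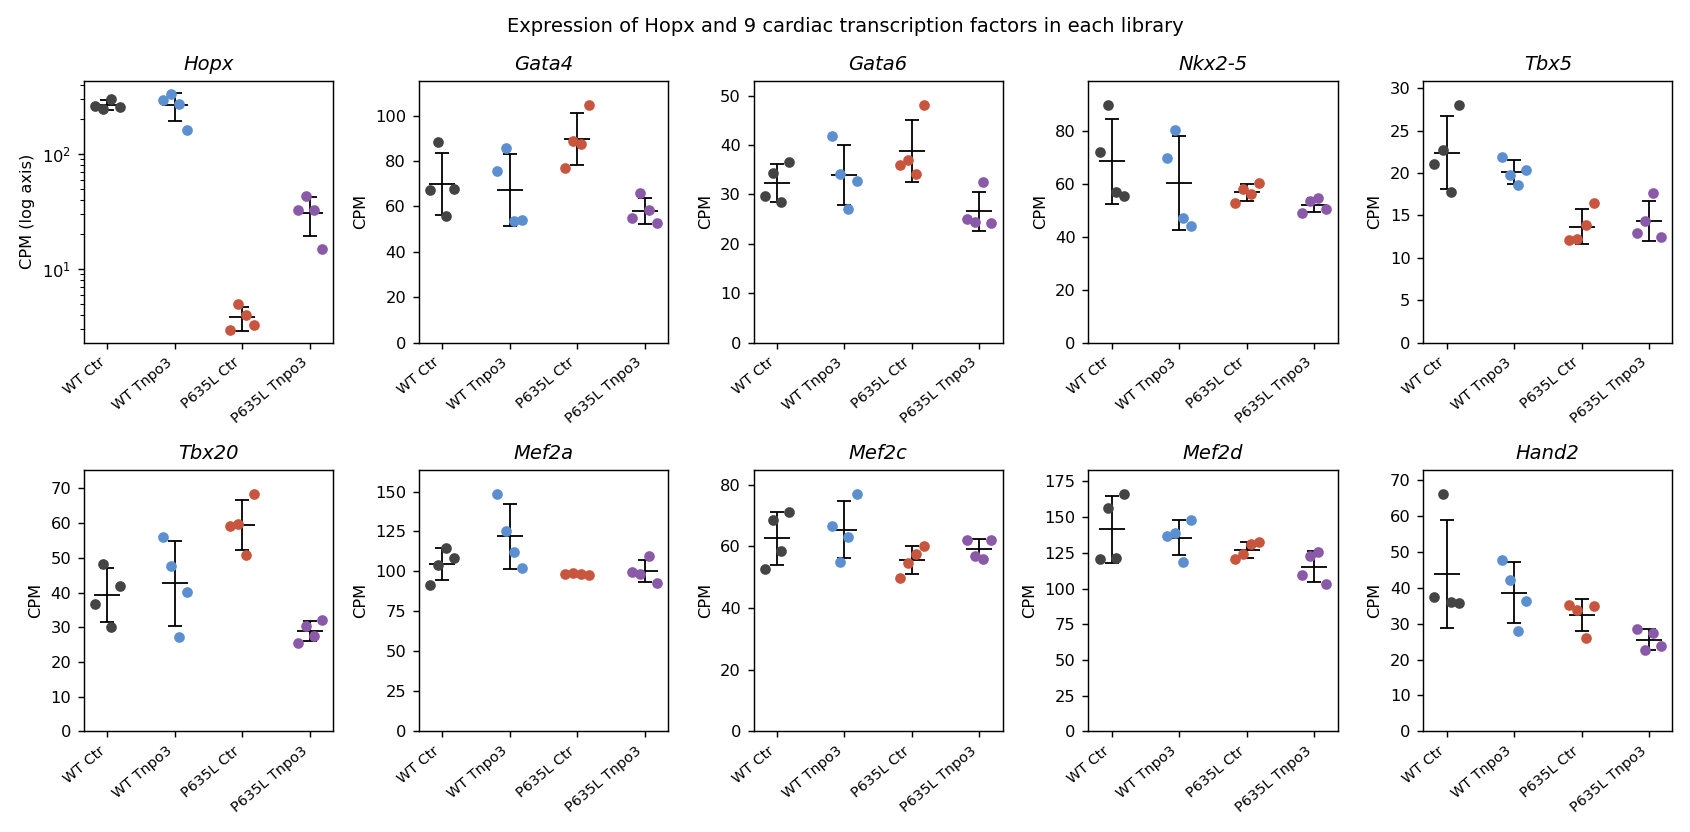
Level of each of the 10 genes (CPM, vertical axis, logarithmic for Hopx and linear from 0 for the others) in the 16 libraries by group. Points are libraries and bars are the mean ± SD of 4. Hopx lies at 245 to 303 CPM in WT Ctr and at 2.97 to 5.01 CPM in P635L Ctr, and the mean of Tbx20 is highest in P635L Ctr.

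P635L hearts were compared with wild type under the control virus to see which of the factors differ with genotype. Tbx5 fell and Tbx20 rose, Hopx was chosen on this contrast, and the other 7 were not called. The 3 called of 10 stand against 14.2% of all tested genes called in this comparison, and nothing is read from the place of Hopx in that count. The median log2 fold change of the 9 without Hopx was -0.15, beside -0.05 over all tested genes.

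Tbx5, a T-box activator that works with GATA4 and NKX2-5, is needed for septation and the conduction system. It measured 21.1, 22.7, 17.8 and 28.1 CPM in WT Ctr and 12.1, 12.2, 13.9 and 16.5 CPM in P635L Ctr. The gene lies on chromosome 5 from 119970733 to 120023284, plus strand. The groups did not overlap, and the fall was 1.64-fold (log2 fold change -0.71, SE 0.146, adjusted p = 0.00272). Without the 3 libraries rich in ENSMUSG00000119584 the adjusted p was 0.0612.

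Tbx20 (chromosome 9, 24629434 to 24685599, minus strand), a T-box factor that keeps adult cardiomyocytes functional, went the other way. It measured 36.6, 48.3, 29.9 and 42.0 CPM in WT Ctr and 59.1, 59.6, 50.8 and 68.5 CPM in P635L Ctr, and every P635L value was above every WT Ctr value. The rise was 1.52-fold (log2 fold change 0.60, SE 0.182, adjusted p = 0.0323). It was called in 10 of 15 alternative analyses, with adjusted p from 0.0126 to 0.0982, and it lost the call without WT Ctr replicate 1 or 3 or without P635L Ctr replicate 1, 2 or 4.

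The GATA factors, zinc finger activators of contractile genes, were on the same side as Tbx20 without passing the threshold. Gata4 measured 67.0, 88.4, 56.0 and 67.6 CPM in WT Ctr against 77.0, 89.0, 87.3 and 105 CPM in P635L Ctr (log2 fold change 0.36, SE 0.162, adjusted p = 0.153), with groups that overlapped at WT Ctr replicate 2. Gata6 measured 29.6, 34.3, 28.5 and 36.6 CPM in WT Ctr against 36.0, 37.0, 34.2 and 48.1 CPM in P635L Ctr (log2 fold change 0.27, SE 0.146, adjusted p = 0.243), again with overlap. Gata4 was called only without the ENSMUSG00000119584-rich libraries (adjusted p = 0.0367). Gata6os, which overlaps Gata6 by 368 exon bases on the other strand, was called higher in P635L Ctr, at 11.9 to 14.8 CPM against 6.15 to 10.7 CPM (log2 fold change 0.57, SE 0.159, adjusted p = 0.0211), and without stated strand use the pair may share reads.

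Nkx2-5, the homeodomain partner of GATA4 and TBX5, ranged from 55.4 to 89.8 CPM in WT Ctr and from 52.9 to 60.3 CPM in P635L Ctr (log2 fold change -0.27, SE 0.176, adjusted p = 0.335). Hand2, the helix-loop-helix factor of the ventricles, ranged from 35.7 to 66.3 CPM and from 25.96 to 35.2 CPM (log2 fold change -0.43, SE 0.194, adjusted p = 0.152). The Hand2 groups did not overlap, and the WT Ctr range was widened by replicate 2 at 66.3 CPM. Hand2 shares 461 exon bases with Hand2os1 on the other strand, and without stated strand use the pair may share reads. Hand2os1 measured 52.4 to 75.9 CPM in WT Ctr, with replicate 2 the highest, and 44.5 to 55.7 CPM in P635L Ctr. The MEF2 genes, activators of contractile and stress-response genes whose activity is held down by class II histone deacetylases, had log2 fold changes of -0.09 (Mef2a), -0.17 (Mef2c) and -0.15 (Mef2d), none called, with adjusted p from 0.360 to 0.644. Mef2a was nearly constant in P635L Ctr, at 97.8 to 98.8 CPM. Mef2a shares 302 exon bases with Lysmd4 on the other strand, and Lysmd4 was called lower (log2 fold change -0.73, SE 0.138, adjusted p = 0.00149). Mef2d shares 537 exon bases with 1700113A16Rik on the other strand. That gene was scarce, at 0.330 to 0.609 CPM in WT Ctr and 0.169 to 0.365 CPM in P635L Ctr.

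**Figure D3:**
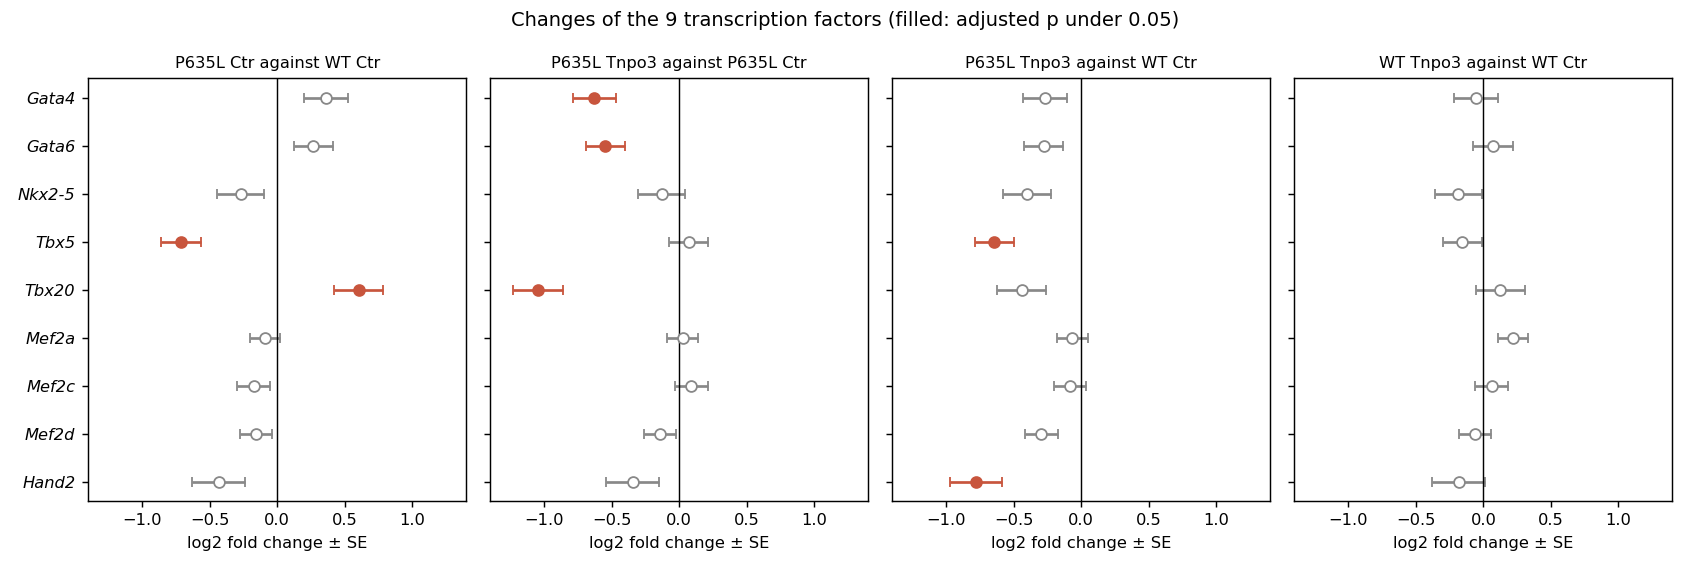
Log2 fold change (horizontal axis) with its standard error for the 9 factors other than Hopx in 4 comparisons, filled where the adjusted p was under 0.05. Tbx20 lies at 0.60 in P635L Ctr against WT Ctr and at -1.05 in P635L Tnpo3 against P635L Ctr, and no filled point appears for WT Tnpo3 against WT Ctr.

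The Tnpo3 virus was compared with the control virus within P635L hearts. Beside the rise of Hopx, Tbx20, Gata4 and Gata6 fell, and the other 6 were not called. The 4 called of 10 include Hopx, which was chosen on the P635L Ctr libraries and is set aside, and the 3 called of the 9 others stand against 3.88% of all genes tested. This comparison and that of genotype share the P635L Ctr libraries, so opposite signs in the 2 are not independent.

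Tbx20 measured 25.5, 30.4, 27.5 and 32.0 CPM in P635L Tnpo3, below all 4 P635L Ctr values of 50.8 to 68.5 CPM. The fall was 2.06-fold (log2 fold change -1.05, SE 0.183, adjusted p = 0.00365) and was called in all 15 alternative analyses. Gata4 measured 54.7, 66.0, 58.4 and 52.6 CPM, also below every P635L Ctr value, a 1.55-fold fall (log2 fold change -0.63, SE 0.162, adjusted p = 0.0368). Gata6 measured 25.1, 24.5, 32.5 and 24.3 CPM, all below the P635L Ctr range of 34.2 to 48.1 CPM with replicate 3 the closest to it, a 1.46-fold fall (log2 fold change -0.55, SE 0.146, adjusted p = 0.0434). The GATA calls were near the threshold and each held in 8 of 15 alternative analyses, with adjusted p up to 0.138 for Gata4 and 0.172 for Gata6. When single libraries were left out, both were lost without P635L Ctr replicate 2 or 4 or P635L Tnpo3 replicate 1, 2 or 4, Gata4 also without replicate 3 of either group, and Gata6 also without P635L Ctr replicate 1.

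Tbx5 with the virus was close to its P635L Ctr level, at 12.9, 14.4, 17.6 and 12.4 CPM (log2 fold change 0.07, SE 0.146, adjusted p = 0.859 against P635L Ctr). Hand2 measured 28.6, 22.6, 27.4 and 23.7 CPM (log2 fold change -0.35, SE 0.194, adjusted p = 0.363). Nkx2-5 had a log2 fold change of -0.13 and the 3 MEF2 genes had log2 fold changes of -0.14 to 0.09, all uncalled with adjusted p from 0.585 to 0.941.

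Fibroblast markers changed on the same side as Tbx20, Gata4 and Gata6 in both comparisons, and most ventricular markers on the other side. All 6 fibroblast markers were called higher in P635L Ctr than in WT Ctr, with a summed level of 1162 to 1696 CPM against 656 to 964 CPM, and 4 of the 6 were called lower in P635L Tnpo3 than in P635L Ctr, where the sum was 756 to 1213 CPM. Of the 5 ventricular muscle markers, 4 were called lower in P635L Ctr, with a sum of 34613 to 36219 CPM against 56374 to 65683 CPM, and 1 was called higher with the virus, where the sum was 41981 to 49107 CPM. Endothelial markers (5) and those of smooth muscle cells and pericytes (6) had 0 called in either comparison. All 5 macrophage markers had negative fold changes in P635L Ctr against WT Ctr, 1 of them called, and positive ones with the virus, 0 called. Over all genes, 14.2% were called in the first comparison and 3.88% in the second. None of the fibroblast markers was at 0 in any library. The part of these markers in the changes of Tbx20, Gata4 and Gata6, which fibroblasts also express, was not tested. In bulk tissue, fewer cells of a type and less RNA per cell cannot be told apart.

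Within groups, the levels of Gata4, Gata6 and Tbx20 also varied together. With group means removed, Pearson's r over the 16 libraries was 0.75 for Gata4 with Tbx20, 0.71 for Gata6 with Tbx20 and 0.57 for Gata4 with Gata6. Other pairs were as high, with 0.80 for Gata6 with Tbx5, 0.79 for Tbx5 with Mef2d and 0.71 for Tbx20 with Hand2. The likeness was thus not particular to Gata4, Gata6 and Tbx20. Values among the members ran from -0.43 for Hopx with Mef2c to 0.89 for Gata4 with Nkx2-5, and that of Hopx with Tbx5 was 0.08. The points of each pair share a library and its scaling, and the values are descriptions.

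In P635L Tnpo3 against WT Ctr, a comparison that shares libraries with both of the preceding ones, all 10 log2 fold changes were below 0. Over all genes tested, 44.0% had a positive log2 fold change. Tbx5 and Hand2 were called lower along with Hopx (log2 fold change -3.11), which again carries no test here. The 2 called of the 9 without Hopx stand against 3.07% of all genes tested, and the median of the 9 without Hopx was -0.29, beside -0.05 over all genes. Tbx5 was 1.56-fold lower (log2 fold change -0.64, SE 0.146, adjusted p = 0.0201), with groups that only just did not overlap, at 17.6 CPM for P635L Tnpo3 replicate 3 and 17.8 CPM for WT Ctr replicate 3. Hand2 was 1.72-fold lower (log2 fold change -0.78, SE 0.195, adjusted p = 0.0366) with no overlap. Both calls held in 7 of 15 alternative analyses, and each was lost without WT Ctr replicate 2 or P635L Tnpo3 replicate 1, 2 or 4, Tbx5 also without WT Ctr replicate 4 and Hand2 also without P635L Tnpo3 replicate 3. Both were lost as well without the 3 libraries with Xist above the Y-linked genes and without the 3 rich in ENSMUSG00000119584 (adjusted p = 0.242 for Tbx5 and 0.218 for Hand2, the highest over all alternatives). In the authors' deposited tables of DESeq2 results, the same 3 genes of the 10 had an adjusted p under 0.05 here, and in P635L Ctr against WT Ctr these were Hopx, Tbx5 and Tbx20.

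Under the Tnpo3 virus in both genotypes, P635L Tnpo3 against WT Tnpo3, Hopx was the only one of the 10 called, against 3.72% of all genes. All 10 log2 fold changes were below 0, while 47.9% of all genes had a positive one. The median of the 9 without Hopx was -0.28, beside -0.02 over all genes. Both this comparison and that with WT Ctr use the P635L Tnpo3 libraries, so their shared direction is not independent. The nearest to the threshold were Tbx5 (log2 fold change -0.49, adjusted p = 0.0691), Tbx20 (-0.57, adjusted p = 0.0895) and Hand2 (-0.60, adjusted p = 0.0946), and DESeq2 called these 3 as well. By edgeR, Tbx20 and Hand2 were called without WT Tnpo3 replicate 3, and Tbx5 without P635L Tnpo3 replicate 3. Without the libraries rich in ENSMUSG00000119584 edgeR called Tbx5, Hand2 and Mef2a lower as well. In wild type, WT Tnpo3 against WT Ctr, edgeR called 0 of the 10 and 0.00536% of all genes, with log2 fold changes from -0.18 (Nkx2-5) to 0.22 (Mef2a). The unadjusted p was over 0.05 for each of the 10, and DESeq2 also called 0.

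The difference between genotypes in the effect of the virus was called for Hopx and Tbx20. With Hopx set aside, since the libraries on which it was chosen enter this term, 1 of 9 was called, against 0.504% of all genes. For Tbx20 the virus changed the level by 0.12 in wild type and by -1.05 in P635L on the log2 scale, an interaction of -1.17 (SE 0.257, adjusted p = 0.04998). That value lies at the threshold and was called in 9 of 22 alternative analyses, with adjusted p from 0.00273 to 0.135. It was lost without WT Ctr replicate 1, 3 or 4, WT Tnpo3 replicate 1 or 2, P635L Ctr replicate 1, 2 or 4, or any 1 of the P635L Tnpo3 libraries, and without the 3 libraries with Xist above the Y-linked genes. The interactions of Gata4 (-0.57, adjusted p = 0.314) and Gata6 (-0.62, adjusted p = 0.222) were not called.

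Related genes were examined from lists of partners and targets. Of 24 partner and related transcription factors, among them Srf, its coactivator Myocd and the class II histone deacetylases, 21 were tested. In P635L Ctr against WT Ctr 0 were higher and 1 was lower, Tbx3, a T-box repressor of the conduction system (13.03 against 17.2 CPM, log2 fold change -0.40, SE 0.126, adjusted p = 0.0411). This 1 of 21 stands against 14.2% of all genes tested, and the median of the list was -0.08, beside -0.05 over all genes. With the Tnpo3 virus in P635L hearts 0 of 21 were called by edgeR, against 3.88% of all genes, 2 had an unadjusted p under 0.05, and DESeq2 called 0.

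Of 13 targets of serum response factor, the partner of HOPX, 2 were higher in P635L Ctr and 0 lower, a share near the 14.2% of all genes called. Of the 13, 10 had positive fold changes with a median of 0.50, beside 45.0% of all genes and a median of -0.05. The immediate early genes Egr1 (99.1 against 19.8 CPM, log2 fold change 2.32, SE 0.534, adjusted p = 0.0101) and Junb (53.9 against 27.5 CPM, log2 fold change 0.97, SE 0.274, adjusted p = 0.0249) rose, each with groups that overlapped. With the virus in P635L hearts 0 of 13 were called by edgeR, against 3.88% of all genes, 2 had an unadjusted p under 0.05 and DESeq2 called 0, while 10 of 13 were negative and the median was -0.23, beside 0.01 over all genes.

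Of 20 genes of heart muscle that the core factors are known to control, among which Actc1 is also on the preceding list, Nppa is also an atrial marker and Myh6 and Tnni3 are also ventricular markers, 3 were higher and 5 lower in P635L Ctr. These 8 of 20 stand against 14.2% of all genes. The median log2 fold change of the list was -0.37, beside -0.05 over all genes. Nppa, the atrial natriuretic peptide of stressed ventricle, rose from 264 to 7544 CPM (log2 fold change 4.84, SE 0.521, adjusted p = 1.85e-05). Myh7, the slow myosin heavy chain, fell from 856 to 139 CPM (log2 fold change -2.62, SE 0.277, adjusted p = 6.55e-06), and the troponins Tnni3 (log2 fold change -0.81) and Tnnc1 (-0.85) fell as well. With the virus in P635L hearts 2 were higher and 2 lower, against 3.88% of all genes called, with a median of -0.09. Nppa fell to a mean of 1929 CPM (log2 fold change -1.97, SE 0.460, adjusted p = 0.0277), with libraries from 916 to 4506 CPM and a median of 1146 CPM. Myh7 rose to 363 CPM (log2 fold change 1.39, SE 0.266, adjusted p = 0.00768), while Xirp1, an actin-binding protein of the intercalated disc, fell (-0.72, SE 0.173, adjusted p = 0.0262).

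Splicing of the 10 genes was read from the authors' deposited rMATS tables, which compare each of the 3 other groups with WT Ctr. Their inclusion level is the fraction of transcripts with the alternative exon or site, estimated from junction reads. The tables hold no event for Hopx, Gata6, Nkx2-5 or Hand2 and 20, 19 and 24 events in the other 6 genes in the tables of P635L Ctr, WT Tnpo3 and P635L Tnpo3. An event counted as called with the authors' FDR under 0.05, inclusion that differed by 0.1 or more, and 10 or more junction reads per library on average in each group. Of the members' events 16, 15 and 21 had such reads in the tables of P635L Ctr, WT Tnpo3 and P635L Tnpo3, and by that rule 0 were called. The backgrounds are 2.52% of events with such reads for P635L Ctr, 0.941% for WT Tnpo3 and 2.12% for P635L Tnpo3. With no minimum of reads 1 event passed, an alternative splice site of Mef2c in the P635L Tnpo3 table (FDR 0.00748), which rested on means of 3.50 and 7.00 reads.

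Among events with reads in all 4 groups, 10 used both forms in WT Ctr, with a mean inclusion of 0.1 to 0.9. This set was chosen after its values were seen, and its most deeply read events lie in Mef2d. One is a pair of mutually exclusive coding exons, known as α1 and α2, of which α2 is specific to muscle. The other is a 21-base exon, known as β, which like the 24-base β exon of Mef2a codes for an acidic stretch that strengthens activation by MEF2. The sequences are shown because they are the stretches that the Mef2d and Mef2a isoforms exchange or omit. They come from GENCODE M21 transcripts (GRCm38, found by exon length and the length of both flanking introns), at chr3:88158034-88158171 for the α1 exon, chr3:88158221-88158355 for the α2 exon and chr3:88161781-88161801 for the β exon of Mef2d (plus strand), and at chr7:67244521-67244544 (minus strand) for that of Mef2a. Capitals mark the alternative exon, and the β exons have 30 coding bases of each neighbouring exon in lower case.
Mef2d α1 exon: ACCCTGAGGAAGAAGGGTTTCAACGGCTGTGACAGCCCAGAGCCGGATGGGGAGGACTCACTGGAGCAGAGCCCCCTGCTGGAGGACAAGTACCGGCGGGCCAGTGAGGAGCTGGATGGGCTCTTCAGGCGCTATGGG
Mef2d α2 exon: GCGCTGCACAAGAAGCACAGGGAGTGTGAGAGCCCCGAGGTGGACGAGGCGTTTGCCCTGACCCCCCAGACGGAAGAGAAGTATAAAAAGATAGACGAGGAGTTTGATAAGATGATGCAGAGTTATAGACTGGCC
Mef2d β exon: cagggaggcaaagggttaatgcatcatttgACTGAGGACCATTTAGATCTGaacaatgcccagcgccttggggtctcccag
Mef2a β exon: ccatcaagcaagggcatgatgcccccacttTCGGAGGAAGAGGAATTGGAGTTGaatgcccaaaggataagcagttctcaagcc
All 4 lengths are multiples of 3, so each choice keeps the reading frame.

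The share of the α1 exon among Mef2d transcripts was 0.5, 0.515, 0.525 and 0.505 in the 4 WT Ctr libraries and 0.610, 0.637, 0.669 and 0.550 in the 4 P635L Ctr libraries. The groups did not overlap, with means of 0.511 ± 0.0111 and 0.617 ± 0.0505 (SD, n = 4) on means of 116 and 127 reads, but the authors' FDR was 0.0866. In P635L Tnpo3 the share was 0.621, 0.557, 0.476 and 0.750, which spans both of those groups (FDR 0.385 against WT Ctr). WT Tnpo3 had a mean of 0.507 ± 0.0691.

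The Mef2d β exon was included at 0.609, 0.692, 0.598 and 0.670 in WT Ctr and at 0.560, 0.523, 0.417 and 0.630 in P635L Ctr, with ranges that overlapped (FDR 0.138). P635L Tnpo3 had a mean of 0.609 ± 0.0651 and WT Tnpo3 one of 0.499 ± 0.153, where 1 library lay at 0.289. The Mef2a β exon was near even use in WT Ctr (0.505 ± 0.0851) and P635L Ctr (0.532 ± 0.0749), and 0.402 ± 0.134 in P635L Tnpo3 (FDR 1.00 for both tables). The first exon of a mutually exclusive pair in Mef2c stood at 0.812 ± 0.112 in WT Ctr and 0.895 ± 0.0417 in P635L Ctr (FDR 0.101).

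**Figure D4:**
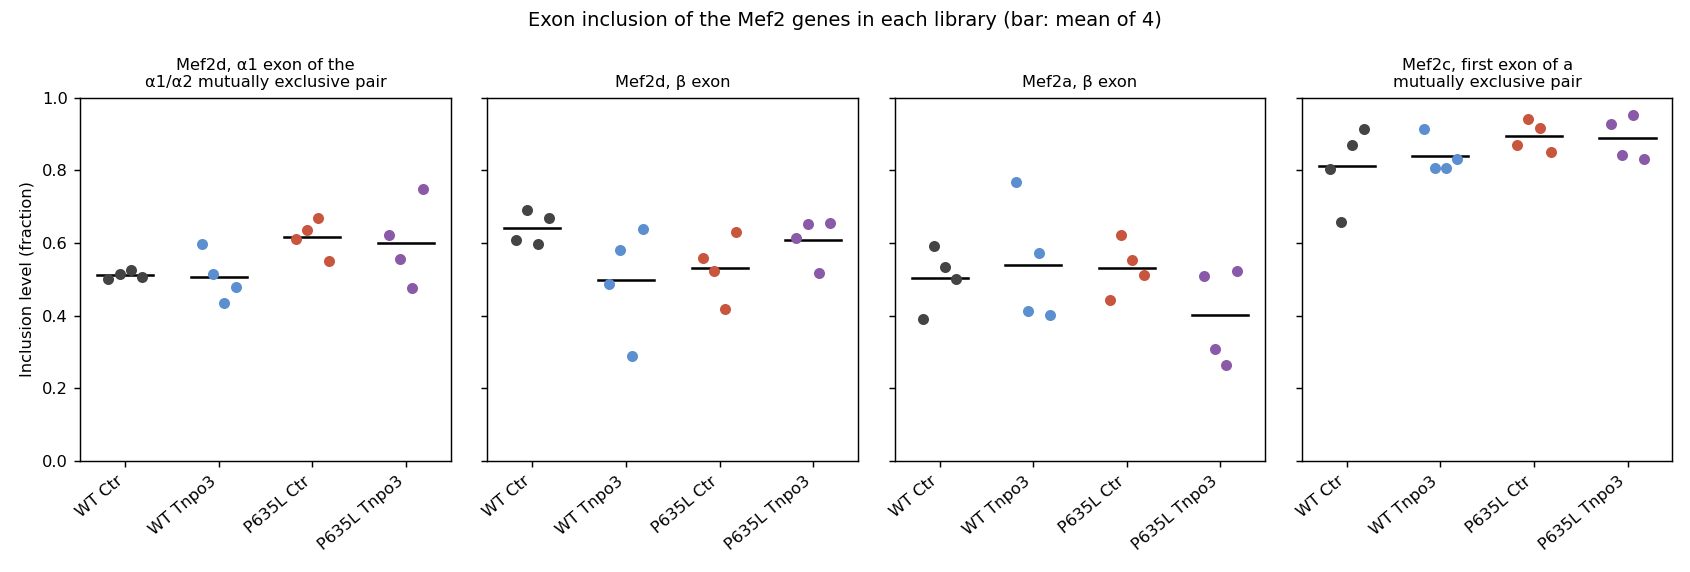
Inclusion level (fraction, vertical axis from 0 to 1) of 4 alternative exons of Mef2d, Mef2a and Mef2c in each library by group, with the mean of 4 as a bar. The Mef2d α1 share lies at 0.5 to 0.525 in WT Ctr and 0.550 to 0.669 in P635L Ctr, and the WT Ctr and P635L Ctr values of the other 3 exons overlap.

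P635L Tnpo3 was compared with P635L Ctr for the 10 events by a two-sided exact permutation test of the mean inclusion. The smallest p was 0.114, for an alternative splice site of Gata4 (0.408 against 0.198), and the smallest adjusted over the 10 events was 0.686. With 4 against 4 libraries this test cannot go below 0.0286. For the Mef2d α1 exon the difference was -0.02 (exact p = 0.857) and for the Mef2d β exon it was 0.08 (exact p = 0.257). Mean reads per library were 11.5 to 127 in these events, which limits the precision of each inclusion value.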

How the data were processed

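Poly(A) RNA of 16 left ventricles, 4 per group, was sequenced from strand-marking libraries. The authors deposited whole-number read counts per gene, which per the submitters' processing notes came from STAR 2.7.9a and featureCounts 2.0.6 on GRCm39. The authors also deposited DESeq2 tables with log2 fold changes and adjusted p-values (3 comparisons with WT Ctr) and rMATS tables whose junction counts, inclusion fractions and FDR (an adjusted p-value) are taken as given, per the file headers. Whether counting used strand, and the rMATS version, are not given in the sources used here. Of each rMATS list the libraries are known by group but not by replicate number.

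Counts were fitted with edgeR 4.0.16 in R 4.3.3 (TMM scaling, filterByExpr, robust quasi-likelihood test, all 16 libraries in one fit with 12 residual degrees of freedom, Benjamini-Hochberg adjustment over 18662 genes, threshold 0.05). The fit was also run on simulated counts that gave every gene the same spread. That run does not cover the libraries rich in ENSMUSG00000119584 or those with Xist above the Y-linked genes. Alternatives were DESeq2 1.42.0, upper-quartile scaling, no filter, only the groups compared, the replicate number as a block, and leaving out libraries. The genes named follow a rule. They are the 10 genes, Tnpo3, Rbm20 and genes that share exon bases with one of the 10. The neighbours of Hopx and the 5 genes most like Hopx by Pearson's r are added. Each list gives at most 4 called genes by smallest adjusted p in the genotype comparison. It gives at most 2 in the virus comparison of P635L hearts. Splice events of mixed use (10) were picked after their values were seen and compared by an exact permutation test. The members and lists were chosen with earlier results of these data known. Libraries are separate mice. RefSeq promoter entries were found for 7 of the 10 members. Counting intervals cover counting error only.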

Additional observations from a re-analysis of the deposited data

Results flagged for a closer look

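Among the 40 sets of 4 libraries screened (10 genes in 4 groups), 3 held a library far from the rest, where chance alone gives about 1 in 20. Hand2 in WT Ctr replicate 2 was 66.3 CPM, with the next at 37.5 CPM, and this library is one of the 3 rich in ENSMUSG00000119584. Hand2 in P635L Ctr replicate 3 was 25.96 CPM, with the next at 33.8 CPM. Gata6 in P635L Tnpo3 replicate 3 was 32.5 CPM, with the next at 25.1 CPM.

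The effect of the Tnpo3 virus differed between genotypes for Hopx, by 3.01 on the log2 scale (edgeR, adjusted p = 0.00175, called in 22 of 22 alternative analyses). The P635L Ctr and WT Ctr libraries in that term also served to choose Hopx, and the alternatives use them too. Neither the p nor the count of calls is therefore independent of the choice. For Tbx20 the effect differed by -1.17 (edgeR, adjusted p = 0.04998, called in 9 of 22).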

How the results depend on the processing

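No called value changed its direction under any alternative that was run. Leaving out 1 library at a time, the number of the 10 genes called by edgeR was 2 to 3 in P635L Ctr against WT Ctr (3 with all libraries), 2 to 3 in P635L Tnpo3 against P635L Ctr (4), 1 to 3 in P635L Tnpo3 against WT Ctr (3), 1 to 3 in P635L Tnpo3 against WT Tnpo3 (1), 1 to 2 for the interaction (2) and 0 in WT Tnpo3 against WT Ctr (0). In P635L Tnpo3 against WT Ctr 1 gene, Hopx, was called with only the groups compared in the fit, without the ENSMUSG00000119584-rich libraries and without the 3 libraries with Xist above the Y-linked genes; without the latter the interaction also had 1. In P635L Tnpo3 against WT Tnpo3, 4 were called by DESeq2 and 4 without the ENSMUSG00000119584-rich libraries. Those libraries also decide Tbx5 and Gata4 in P635L Ctr against WT Ctr, where 3 were called either way but Gata4 took the place of Tbx5. The labels do not say that equal replicate numbers pair mice. Correlations of same-numbered deviations ran from -0.23 to 0.55 and cannot settle whether they do. Those of WT Ctr with WT Tnpo3 were all above 0, at 0.0964 to 0.552, and the other pairs of groups had values on both sides of 0. With the replicate block 3 genes were called in P635L Tnpo3 against P635L Ctr instead of 4, Gata6 being lost, and the counts of the other comparisons were equal. Called splice events of the 10 genes remained 0 with at least 20 reads, a difference of at least 0.05 or an FDR under 0.01. No scaling moved the median of all genes by over 0.1. For the 10 inclusion differences between the P635L groups, pooling reads or leaving out 1 library at a time moved each value by less than the SD between libraries, although those of 3 Mef2c events and of the Mef2d α1 exon changed sign without 1 library.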
